A study of Mus musculus with 18 samples.

Results

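The genes described here encode 10 SR proteins, serine- and arginine-rich splicing factors: Srsf1, Srsf2, Srsf3, Srsf4, Srsf5, Srsf6, Srsf7, Srsf9, Srsf10 and Srsf11. They were chosen by gene symbol from the 55573 genes of the deposited expression table, as members of the family known for exons that bring an early stop codon. All 10 were found, and all 10 were among the 15216 genes that reached 1 TPM in at least 6 libraries and were tested. TPM is a length-corrected transcript abundance scaled to the same fixed total in each library.

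The libraries came from total RNA of 18 cultures of cortical neural progenitor cells of C57BL/6 mice. Such cells divide in the developing cortex and produce its neurons and glia. The labels give 3 groups of 6 libraries, each numbered 3, 4, 5, 6, 8 and 9 as biological replicates. Upf2 Trp53 Cre cultures carried floxed alleles of Upf2 and of Trp53 (Upf2fl/fl Trp53fl/fl) and received Cre recombinase by the adeno-associated virus AAV9-Cre. Upf2 Cre cultures carried floxed Upf2 alleles (Upf2fl/fl) and received the same virus. Upf2 mock cultures were Upf2fl/fl cells given medium only. Virus was washed out after 14 h and RNA was taken at 72 h. Floxed Upf2 was thus common to all 3 groups, a mock culture of the doubly floxed line was not analysed here, and neither was a virus without Cre. The Trp53 genotype therefore cannot be told apart from the cell line, nor Cre from virus exposure.

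SR proteins bind short motifs in exons, help the spliceosome recognise splice sites, and several also carry finished mRNA out of the nucleus. Many SR genes control their own level: when the protein is abundant it promotes the inclusion of a conserved "poison" exon, or the splicing of its own 3′ end, and the resulting transcript carries a stop codon upstream of an exon junction. Nonsense-mediated mRNA decay (NMD) recognises such stops and destroys the transcript, and UPF2, the product of Upf2, is a core factor of that pathway. The gene-level values used here add up productive and NMD-targeted transcripts of a gene, so the use of these exons was not measured.

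In the GENCODE M21 annotation (mm10), 6 of the 10 genes had NMD-labelled transcripts whose stop codon lay in an exon outside the principal transcripts. There were 7 such stop codons in all, and for each the exon of the lowest-numbered transcript is described. The stretch from the first base of the exon to its in-frame stop is printed below in lower case, 5′ to 3′ on the strand of the gene, with the stop codon in capitals. Shown are the exons of the genes whose levels moved most, Srsf7 and Srsf3, of Srsf4, which moved the other way, and of Srsf9, whose mean level was the most even over the groups:
Srsf7 (chr17:80205054-80205081, minus strand): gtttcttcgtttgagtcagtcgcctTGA
Srsf3 (chr17:29039454-29039487, plus strand): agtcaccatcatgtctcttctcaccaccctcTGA
Srsf4 (chr4:131884276-131884390, plus strand): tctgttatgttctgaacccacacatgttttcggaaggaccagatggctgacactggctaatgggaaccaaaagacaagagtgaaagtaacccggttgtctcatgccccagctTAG
Srsf9 (chr5:115328347-115328428, plus strand): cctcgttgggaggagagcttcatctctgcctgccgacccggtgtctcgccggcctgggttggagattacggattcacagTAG

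The stop came early in the 2 longest of these exons. In Srsf7 it ended 28 nt into an exon of 460 nt, and in Srsf3 34 nt into an exon of 456 nt. In Srsf9 it ended at 82 of 358 nt, in Srsf4 at 115 of 207 nt and in Srsf6 at 152 of 268 nt. Another NMD-labelled transcript of Srsf4 had the same stop in an exon of 188 nt. Srsf11 had 2 such exons, with stops ending at 23 of 109 nt and at 50 of 117 nt. In the lowest-numbered transcript with each stop, the distance from the stop to the last exon junction was between 456 and 700 nt for 6 of the exons and 67 nt for the second exon of Srsf11. Other NMD-labelled transcripts with the same stops had distances of 422 nt in Srsf3, 706 nt in Srsf4 and 196 nt in Srsf11. Srsf1, Srsf2 and Srsf5 had NMD-labelled transcripts without a separate exon of this kind. In Srsf1 a junction followed the stop after 80 nt, in Srsf5 after 251 nt, and in Srsf2 the last junction lay 113 or 217 nt downstream. The distance of 217 nt was also that of a protein-coding principal transcript of Srsf2, and another principal transcript had 7 nt. For Srsf10 the annotation listed 10 transcripts and 0 labelled as NMD targets.

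**Figure D1:**
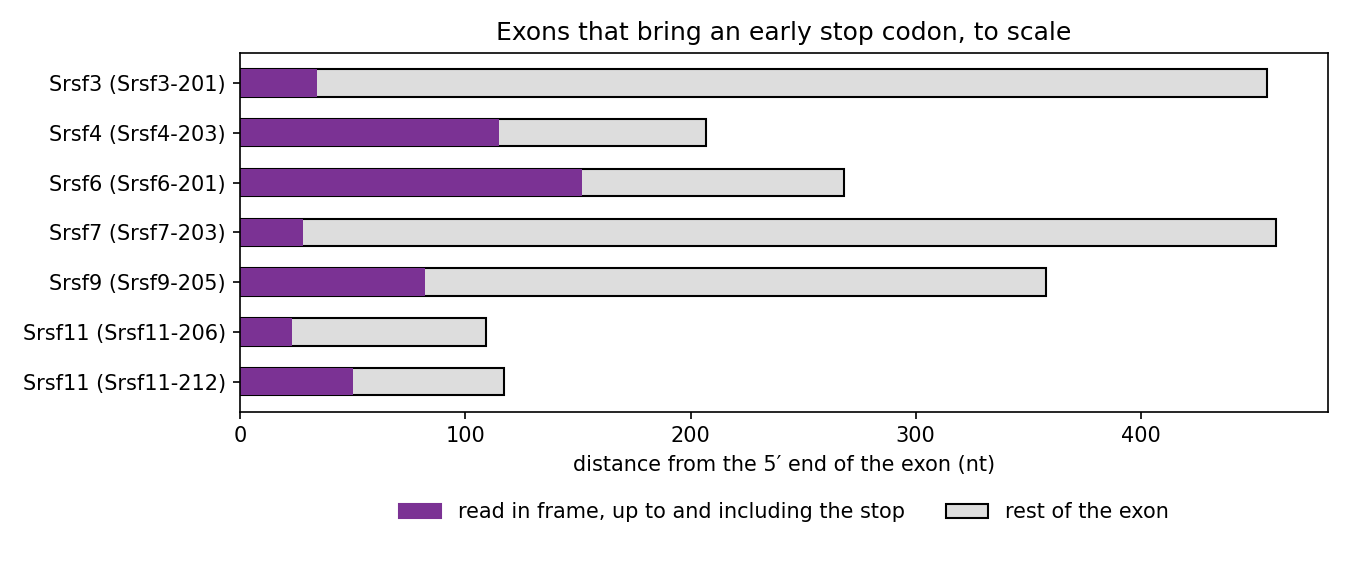
Each bar is an annotated exon that brings an early stop codon into an SR transcript, drawn to scale in nt from its 5′ end, with the part read in frame up to and including the stop in purple and the rest in grey. The stop ends within 34 nt of the exon start in Srsf3 and Srsf7, whose exons are the longest, and at 115 nt or later in Srsf4 and Srsf6. In Srsf11 it ends at 23 nt in an exon of 109 nt and at 50 nt in an exon of 117 nt.

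Over the series, 14019 to 15210 genes per library reached 1 TPM, and TPM keeps no read total, so depth is unknown. Trp53 averaged 16.5 ± 1.69 TPM in Upf2 Trp53 Cre, 138 ± 35.0 TPM in Upf2 Cre and 104 ± 18.2 TPM in Upf2 mock libraries (SD, n = 6 each). Upf2 averaged 33.8 ± 9.03 TPM in Upf2 Trp53 Cre, 20.2 ± 4.82 TPM in Upf2 Cre and 11.1 ± 2.98 TPM in Upf2 mock libraries (log2 differences from Upf2 mock of 1.52 in Upf2 Trp53 Cre and 0.82 in Upf2 Cre, adjusted p = 4.54e-05 and 0.00601), so its total was higher with Cre. The labels do not say which exons are floxed, and a gene total does not measure the deletion; the groups are called here as the labels name them. Summed over 8 radial glia and progenitor markers, the libraries held 4679 to 10712 TPM in Upf2 Trp53 Cre, 3465 to 10344 TPM in Upf2 Cre and 5050 to 13776 TPM in Upf2 mock. Oligodendrocyte lineage markers (6 genes) summed to 1101 to 3417 TPM in Upf2 Trp53 Cre, 1379 to 4055 TPM in Upf2 Cre and 1510 to 3311 TPM in Upf2 mock libraries. Astrocyte markers (5 genes) summed to 367 to 550.4 TPM in Upf2 Trp53 Cre, 396 to 842 TPM in Upf2 Cre and 379 to 955 TPM in Upf2 mock, and neuronal markers (6 genes) to 147 to 164 TPM in Upf2 Trp53 Cre, 84.6 to 202 TPM in Upf2 Cre and 90.4 to 201 TPM in Upf2 mock. Summed over 6 microglia markers no library passed 1.13 TPM, with Aif1 and C1qa at 0 throughout, and over 6 vascular markers none passed 2.99 TPM. Upf2 Cre replicate 3 stood apart, with a median correlation of 0.905 to its own group, and so did Upf2 mock replicate 3 with 0.916. In Upf2 Cre replicate 6 a single non-coding gene, Gm23935, took 14.1% of all TPM, which lowers every other gene of that library.

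The SR genes were abundant in every group. In Upf2 Trp53 Cre libraries the order by mean TPM was Srsf2, Srsf5, Srsf9, Srsf6, Srsf1, Srsf4, Srsf3, Srsf7, Srsf10 and Srsf11, running from 205 to 42.2 TPM. Only the steps from Srsf9 to Srsf6 and from Srsf7 to Srsf10 were larger than the SD of both genes. In Upf2 Cre libraries the order was Srsf9, Srsf5, Srsf2, Srsf6, Srsf4, Srsf1, Srsf3, Srsf7, Srsf10 and Srsf11, from 186 to 30.6 TPM, and only the step from Srsf2 to Srsf6 exceeded both SDs. In Upf2 mock libraries it was Srsf2, Srsf5, Srsf1, Srsf3, Srsf9, Srsf7, Srsf6, Srsf4, Srsf10 and Srsf11, from 258 to 45.7 TPM, and only the steps from Srsf6 to Srsf4 and from Srsf4 to Srsf10 exceeded both SDs. Srsf10 and Srsf11 had the lowest means in each group. All other neighbours in these orders differed by less than the SD of at least one gene of the pair. Within libraries some of them still kept 1 order: Srsf10 lay above Srsf11 in 6 of 6 Upf2 Trp53 Cre libraries, and Srsf7 above Srsf10 in 6 of 6 Upf2 Cre libraries.

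**Figure D2:**
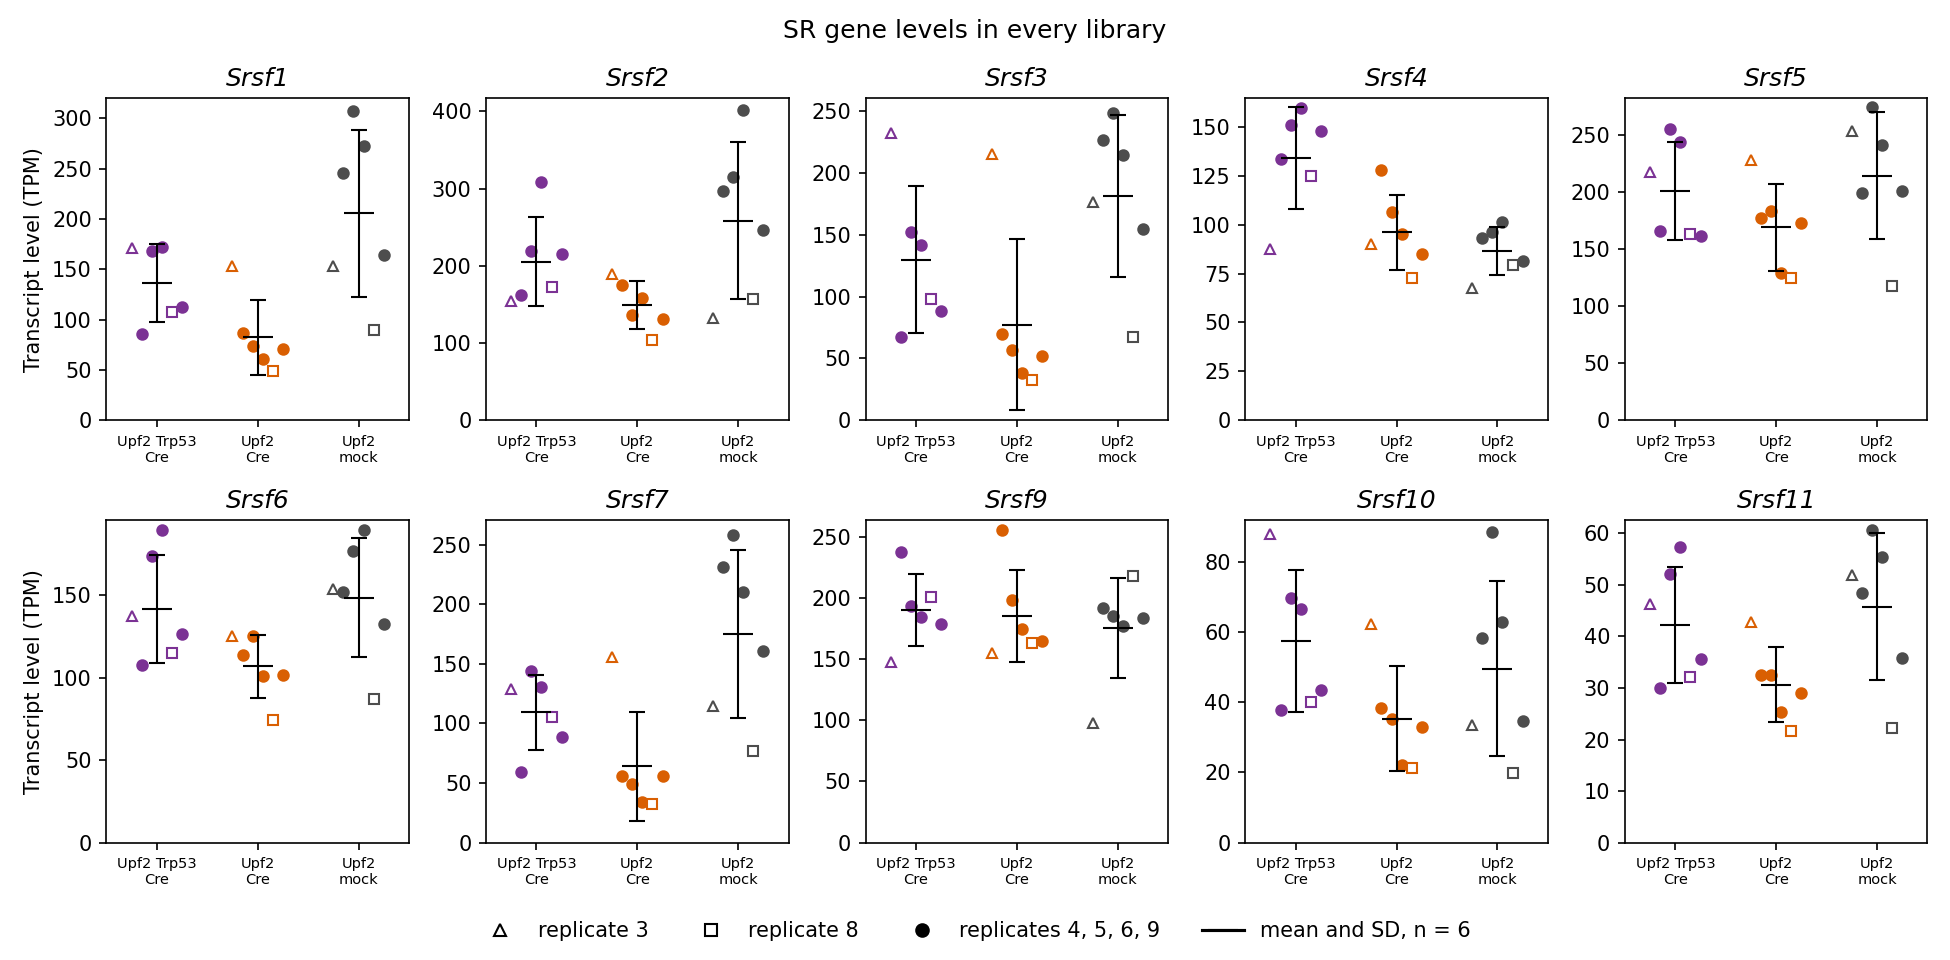
Transcript levels (TPM, linear axis from 0) of the 10 SR genes in every library, with groups from left to right Upf2 Trp53 Cre, Upf2 Cre and Upf2 mock, and bars for the mean and SD (n = 6). For Srsf1, Srsf3 and Srsf7 the Upf2 Cre libraries lie low except replicate 3 (triangle), and replicate 8 (square) is the lowest Upf2 mock library; for Srsf4 the Upf2 Trp53 Cre libraries lie high except replicate 3.

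The first comparison asks how SR gene levels differed when cells with floxed Upf2 received Cre. Srsf1, Srsf2, Srsf3 and Srsf7 fell in Upf2 Cre against Upf2 mock cultures, and none of the 10 rose (limma, Benjamini-Hochberg adjusted p under 0.05 over all tested genes). Of all tested genes 40.7% were called in this comparison, 24.2% lower and 16.5% higher, and the 4 of 10 called lower are read against that background. At an unadjusted p under 0.05, 6 of the 10 passed, all of them lower, where 51.4% of all tested genes passed, 30.6% lower and 20.7% higher. The median log2 difference of the 10 was -0.49, against -0.12 for all tested genes. For 8 of the 10 the difference was below 0. For 0 of the 10 did the groups separate without overlap, which among all tested genes happened for 2.07% below and 3.79% above.

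Srsf7 (ENSMUSG00000024097.11; chromosome 17, 80200080 to 80207307, minus strand), which encodes an SR protein with a zinc knuckle that also serves as an mRNA export adapter, showed the largest fall. Its lowest, median and highest values were 59.1, 117 and 144 TPM in Upf2 Trp53 Cre, 32.6, 52.7 and 156 TPM in Upf2 Cre, and 77.0, 186 and 259 TPM in Upf2 mock libraries. Of the Upf2 Cre libraries 5 of 6 lay below every mock library, and replicate 3 alone lay inside the mock range. The log2 difference between Upf2 Cre and Upf2 mock was -1.54 (SE 0.35, adjusted p = 0.00285), and -1.84 without Upf2 Cre replicate 3 (adjusted p = 6.4e-05). Means were 64.0 ± 46.1 TPM in Upf2 Cre and 175 ± 70.5 TPM in Upf2 mock libraries.

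Srsf3 (ENSMUSG00000071172.13; chromosome 17, 29032628 to 29043373, plus strand) encodes the smallest SR protein, a splicing factor and export adapter. It had 67.0, 120 and 232 TPM as lowest, median and highest value in Upf2 Trp53 Cre, 32.6, 54.2 and 215 TPM in Upf2 Cre, and 67.6, 195 and 248 TPM in Upf2 mock libraries. Of the Upf2 Cre libraries 4 of 6 lay below every mock library; replicate 4, at 69.6 TPM, was just above the lowest mock library and replicate 3 was the highest. The log2 difference was -1.43 (SE 0.40, adjusted p = 0.00982), and -1.79 without Upf2 Cre replicate 3 (adjusted p = 2.49e-04). A processed copy of the gene, Gm9761, matches 492 nt of the Srsf3 transcript at 99.6% identity and averaged 30.6 TPM in Upf2 Trp53 Cre, 17.5 TPM in Upf2 Cre and 43.9 TPM in Upf2 mock libraries. How the authors assigned reads shared by the pair is not given in the sources used here, so the split between Srsf3 and Gm9761 is uncertain.

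Srsf1 (ENSMUSG00000018379.17; chromosome 11, 88047373 to 88053755, plus strand) encodes the founding member of the family, which acts in constitutive and alternative splicing. Its values ran from 85.5 over a median of 140 to 172 TPM in Upf2 Trp53 Cre, from 48.8 over 72.2 to 153 TPM in Upf2 Cre, and from 89.7 over 205 to 307 TPM in Upf2 mock libraries. As for Srsf7, 5 of 6 Upf2 Cre libraries lay below every mock library and the exception was replicate 3. Srsf1 fell by 1.29 on the log2 scale (SE 0.30, adjusted p = 0.00318), with -1.49 when Upf2 Cre replicate 3 was left out (adjusted p = 2.59e-04).

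Srsf2 (ENSMUSG00000034120.18; chromosome 11, 116849901 to 116853094, minus strand) encodes a mainly nuclear SR protein of the splicing speckles. Its lowest, median and highest values were 154, 194 and 309 TPM in Upf2 Trp53 Cre, 103, 148 and 190 TPM in Upf2 Cre, and 132, 272 and 402 TPM in Upf2 mock libraries. Here only 2 of 6 Upf2 Cre libraries lay below every mock library. The log2 difference of -0.71 (SE 0.25, adjusted p = 0.0284) lost its call under 8 of 28 alternatives, among them median-ratio scaling (-0.57, adjusted p = 0.0582) and leaving out Upf2 mock replicate 6 (-0.56, adjusted p = 0.0772). All 3194 bases of Srsf2 lie inside the antisense gene Mettl23, and 655 of them inside the antisense gene Mfsd11. Mettl23 averaged 20.2 TPM in Upf2 Trp53 Cre, 14.9 TPM in Upf2 Cre and 24.4 TPM in Upf2 mock libraries, far below Srsf2. Mfsd11 averaged 23.9 TPM in Upf2 Trp53 Cre, 24.6 TPM in Upf2 Cre and 15.5 TPM in Upf2 mock libraries. The library kit marks the strand, but whether the counting used it is not given in the sources used here.

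The other 6 genes did not pass the test against Upf2 mock. Srsf6, an enhancer-binding splicing regulator, had a log2 difference of -0.45 (adjusted p = 0.0676), and Srsf11, a more distant family member, of -0.52 (adjusted p = 0.0756). Srsf10, whose protein turns into a splicing repressor when dephosphorylated, stood at -0.41 (adjusted p = 0.314), and Srsf5 at -0.32 (adjusted p = 0.208). Srsf4 and Srsf9 had differences above 0, of 0.14 (adjusted p = 0.504; 95% confidence interval -0.21 to 0.49) and 0.10 (adjusted p = 0.678; -0.28 to 0.48). These intervals exclude falls of the size of Srsf1, Srsf3 and Srsf7. Upf2 mock replicate 8 was the lowest or second lowest mock library for 9 of the 10 genes, and without it Srsf5, Srsf6 and Srsf11 were called lower too, 7 of 10 in all. Without Upf2 Cre replicate 3, Srsf6 and Srsf11 joined the 4 genes, for 6 of 10. Without all libraries numbered 3, Srsf1, Srsf2, Srsf3 and Srsf7 were called and no other.

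**Figure D3:**
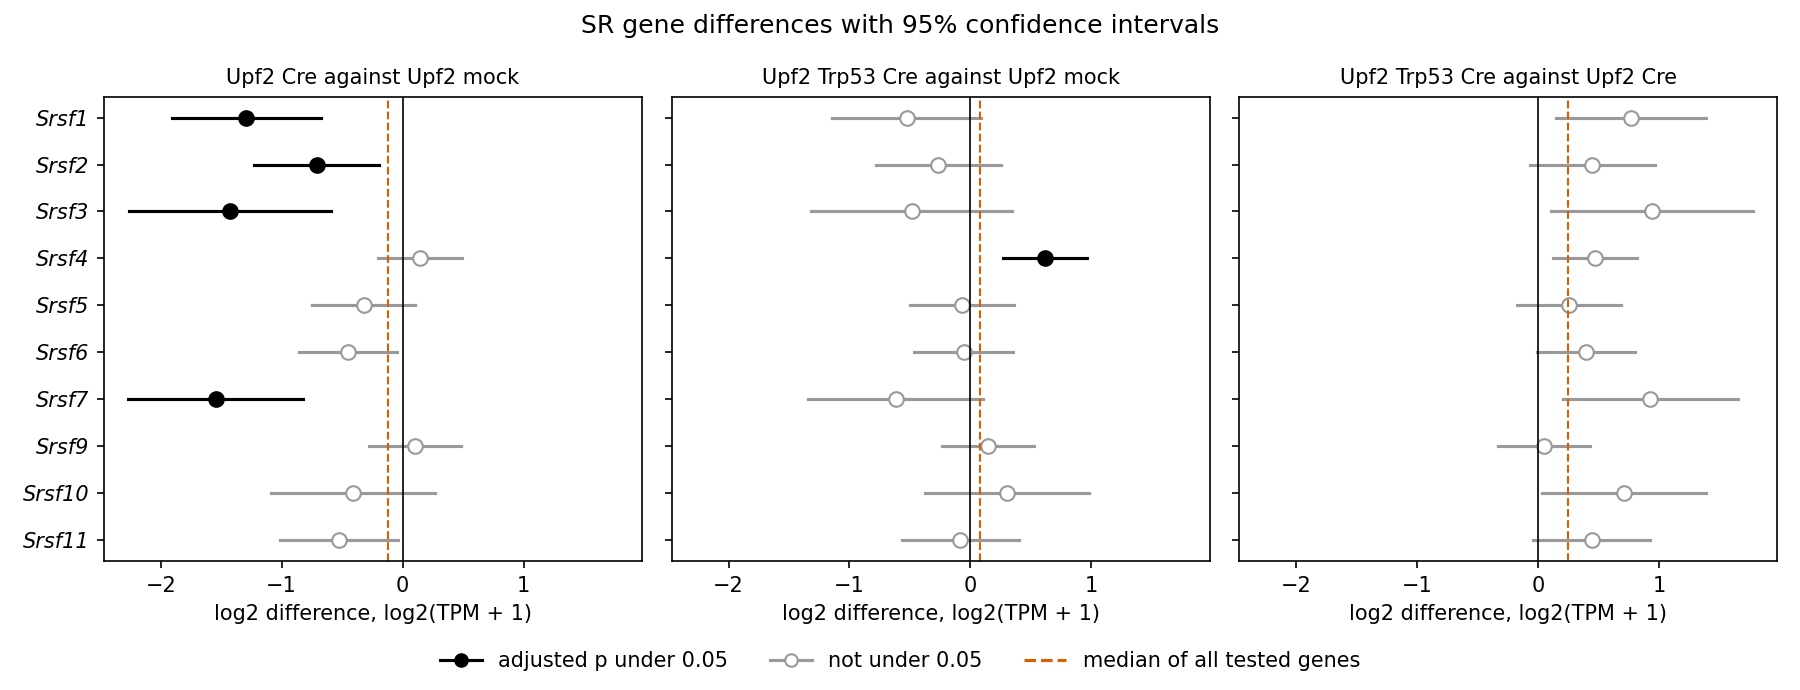
Log2 differences of the 10 SR genes on the log2(TPM + 1) scale with 95% confidence intervals, for Upf2 Cre against Upf2 mock (left), Upf2 Trp53 Cre against Upf2 mock (middle) and Upf2 Trp53 Cre against Upf2 Cre (right); filled points passed an adjusted p under 0.05 and the dashed line is the median of all 15216 tested genes. Filled points are Srsf1, Srsf2, Srsf3 and Srsf7 on the left, all below 0, and Srsf4 in the middle, at 0.61; the right panel has open points only, all above 0.

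The second comparison sets cells with both genes floxed and Cre against Upf2 mock, and it shares the mock libraries with the first. Srsf4 rose and none of the 10 fell. Of all tested genes 11.5% were called, 10.4% higher and 1.09% lower, so 1 of 10 called is near the background. At an unadjusted p under 0.05 Srsf4 was also the only gene of the 10 to pass, where 24.4% of all tested genes passed, 19.7% higher and 4.76% lower. The 10 genes had a median log2 difference of -0.08, against 0.08 for all tested genes. Under median-ratio scaling the medians were -0.21 for the 10 and -0.03 for all, and after quantile normalization -0.17 and -0.04. The groups of all 10 genes overlapped, where 7.08% of all tested genes were separated above and 0.841% below.

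Srsf4 (ENSMUSG00000028911.16; chromosome 4, 131873617 to 131901706, plus strand) encodes an SR protein with a long serine- and arginine-rich tail. Its lowest, median and highest values were 87.4, 141 and 160 TPM in Upf2 Trp53 Cre, 72.5, 92.6 and 128 TPM in Upf2 Cre, and 67.8, 87.3 and 101 TPM in Upf2 mock libraries. Of the Upf2 Trp53 Cre libraries 5 of 6 lay above every mock library, and replicate 3 fell inside the mock range. Srsf4 averaged 134 ± 26.0 TPM in Upf2 Trp53 Cre and 86.5 ± 12.4 TPM in Upf2 mock libraries (SD, n = 6), a log2 difference of 0.61 (SE 0.17, adjusted p = 0.0184). Median-ratio scaling ended the call (0.48, adjusted p = 0.063), as did a fit in which Upf2 Trp53 Cre replicate 5, 6 or 9 was left out (adjusted p between 0.0504 and 0.0533). Overlapping genes of the locus were far lower in TPM, A930004J17Rik at 4.44 TPM in Upf2 Trp53 Cre, 3.39 TPM in Upf2 Cre and 4.08 TPM in Upf2 mock libraries. A930004J17Rik overlaps Srsf4 over 4610 bases on the same strand, so the strand cannot separate reads from that stretch.

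The genes that fell in Upf2 Cre had smaller differences from the same mock libraries in Upf2 Trp53 Cre, and none passed. Srsf7 stood at -0.62 (adjusted p = 0.284; 95% confidence interval -1.34 to 0.10) and Srsf1 at -0.53 (adjusted p = 0.285; -1.14 to 0.09). Srsf3 stood at -0.49 (adjusted p = 0.487; -1.32 to 0.35) and Srsf2 at -0.27 (adjusted p = 0.54; -0.78 to 0.25). These intervals reach from small rises to falls near those of Upf2 Cre, or past it for Srsf2. Srsf5, Srsf6, Srsf9, Srsf10 and Srsf11 had differences between -0.08 and 0.30 with adjusted p of 0.608 or more. For Srsf5, Srsf6, Srsf9 and Srsf11 the sign of this small difference turned when single mock libraries were left out.

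The difference between the Cre groups, which bears on what the added Trp53 deletion and its cell line go with, was above 0 for all 10 genes, but none passed the threshold. In limma 0 of 10 were called higher and 0 lower, and 5 of 10 had an unadjusted p under 0.05. Among all tested genes 14.2% were called, 11.8% higher and 2.46% lower, and 34.6% had an unadjusted p under 0.05, 28.4% higher and 6.22% lower. The median of the 10 was 0.46, against 0.25 for all tested genes, a gap of 0.21. Under median-ratio scaling the median of the 10 moved to 0.18 and that of all genes in this comparison to 0.02, and 32.9% of the called genes were higher instead of 82.7%. In the other comparisons that scaling moved the median of all genes to -0.01 for Upf2 Cre against Upf2 mock, with 51.7% of the called genes higher instead of 40.5%, and to -0.03 for Upf2 Trp53 Cre against Upf2 mock, with 71.7% instead of 90.5%. Groups overlapped for all 10 genes here too, where 1.87% of all tested genes were separated above and 0.848% below.

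The largest differences between the Cre groups were in Srsf3, Srsf7 and Srsf1. This comparison shares the Upf2 Cre libraries with the first, so low values there enter both, and the overlap of genes is no separate evidence. Srsf3 averaged 130 ± 59.7 TPM in Upf2 Trp53 Cre and 77.3 ± 68.8 TPM in Upf2 Cre libraries (log2 difference 0.94, SE 0.40, adjusted p = 0.105). Srsf7 averaged 109 ± 31.7 TPM in Upf2 Trp53 Cre and 64.0 ± 46.1 TPM in Upf2 Cre libraries (0.93, SE 0.35, adjusted p = 0.0712). Srsf1 averaged 136 ± 38.7 TPM in Upf2 Trp53 Cre and 82.3 ± 37.1 TPM in Upf2 Cre libraries (0.77, SE 0.30, adjusted p = 0.0789). In each the Upf2 Cre mean was raised by replicate 3, which held 215 TPM of Srsf3, 156 TPM of Srsf7 and 153 TPM of Srsf1. Srsf10 stood at 0.71 (adjusted p = 0.129), Srsf4 at 0.47 (adjusted p = 0.0594), Srsf2 and Srsf11 at 0.44 (adjusted p = 0.204 and 0.181), Srsf6 at 0.39 (adjusted p = 0.154), Srsf5 at 0.25 (adjusted p = 0.375) and Srsf9 at 0.05 (adjusted p = 0.865). Under median-ratio scaling Srsf5 and Srsf9 turned to -0.03 and -0.23, and Srsf9 was also below 0 after quantile normalization, at -0.06.

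Leaving out libraries changed how many SR genes were called between the Cre groups. Alternatives that keep every library, some of which also changed the count, are given further below. Without Upf2 Cre replicate 3, Srsf3 (1.30, adjusted p = 0.0058), Srsf7 (1.22, adjusted p = 0.00393), Srsf1 (0.96, adjusted p = 0.0119), Srsf10 (0.89, adjusted p = 0.0356) and Srsf4 (0.46, adjusted p = 0.0451) were called higher in Upf2 Trp53 Cre. Without all libraries numbered 3, Srsf1, Srsf2, Srsf3, Srsf4 and Srsf7 were called. Single calls also appeared without Upf2 Cre replicate 4, Upf2 mock replicate 3 or Upf2 Trp53 Cre replicate 3 (1 of 10 each), and 2 appeared without Upf2 Trp53 Cre replicate 4.

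The makeup of the family was described by setting each gene against the mean log2 value of the 10 SR genes in the same library, a ratio that is nearly free of the scaling of the library. Srsf4 averaged 0.16 in Upf2 Trp53 Cre, 0.23 in Upf2 Cre and -0.56 in Upf2 mock libraries on this log2 ratio scale. Srsf9, which encodes a small SR protein with a short serine- and arginine-rich tail, averaged 0.68 in Upf2 Trp53 Cre, 1.17 in Upf2 Cre and 0.43 in Upf2 mock libraries. Both thus stood higher within the family in the Cre groups on average. Srsf7 averaged -0.16 in Upf2 Trp53 Cre, -0.55 in Upf2 Cre and 0.35 in Upf2 mock libraries. Srsf3 averaged 0.02 in Upf2 Trp53 Cre, -0.38 in Upf2 Cre and 0.40 in Upf2 mock libraries. Srsf1 averaged 0.16 in Upf2 Trp53 Cre, -0.07 in Upf2 Cre and 0.58 in Upf2 mock libraries, so these 3 stood lower within the family in both Cre groups. Srsf2 differed least between Upf2 Cre and Upf2 mock, with 0.85 in Upf2 Cre and 0.92 in Upf2 mock libraries. For all 10 genes the groups overlapped on this scale, and since a ratio within the family shows unequal change, it does not show which gene changed.

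**Figure D4:**
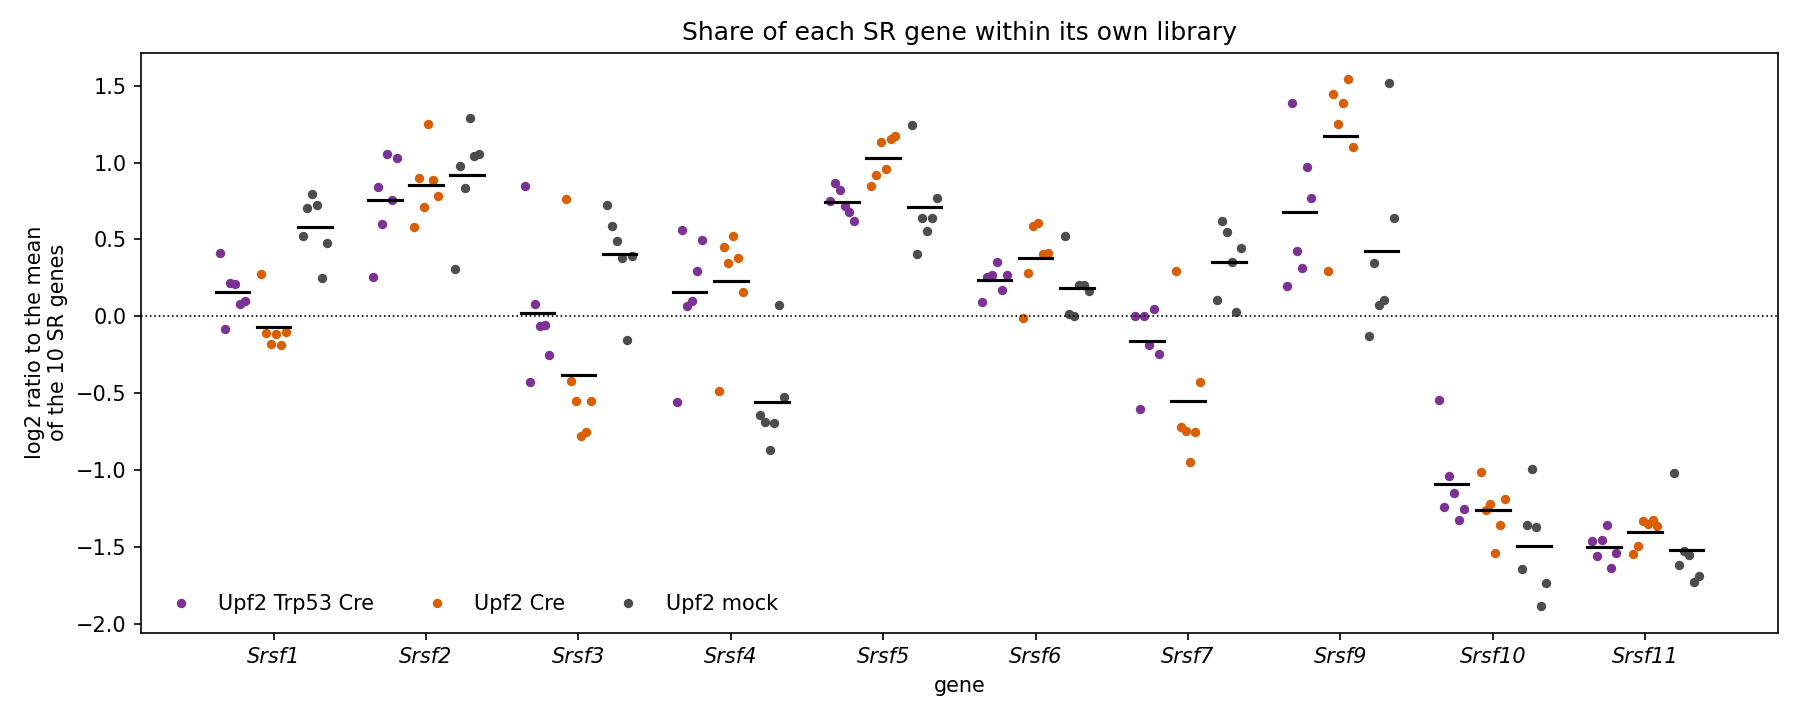
Log2 ratio of each SR gene to the mean of the 10 SR genes in its own library, with a point per library, a bar for the group mean, and groups from left to right Upf2 Trp53 Cre, Upf2 Cre and Upf2 mock within each gene. Upf2 mock libraries sit highest on average for Srsf1, Srsf2, Srsf3 and Srsf7 and lowest for the other 6 genes, and single libraries of each group cross over.

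Genes called lower were found both with and without an annotated stop exon, and whether these classes differ was not tested. Of the 6 genes with such an exon 2 were called lower in Upf2 Cre against Upf2 mock (Srsf3 and Srsf7). Of the 4 genes without a separate exon 2 were called lower (Srsf1 and Srsf2), beside 24.2% of all tested genes. Srsf6 and Srsf11 also carry such exons, and their lower levels had unadjusted limma p of 0.0307 and 0.0356 but no call. Srsf9 and Srsf4 carry such exons and were the 2 genes with differences above 0 in Upf2 Cre, without a call (limma adjusted p = 0.678 and 0.504). Srsf4 alone was called higher in Upf2 Trp53 Cre against Upf2 mock. The stop exons shown above for Srsf3 and Srsf7 share an early stop and a long remainder, a description of these 2 genes only. In Srsf11, which was not called, a stop ended earlier still, at 23 of 109 nt.

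The summed level of the 10 SR genes was 1349 ± 235 TPM in Upf2 Trp53 Cre, 997 ± 254 TPM in Upf2 Cre and 1541 ± 423 TPM in Upf2 mock libraries (SD, n = 6 each). It ran between 1087 and 1656 TPM in Upf2 Trp53 Cre, 695 and 1419 TPM in Upf2 Cre and 935 and 2012 TPM in Upf2 mock libraries, so all 3 groups overlapped. In these bulk samples, fewer expressing cells and less RNA per cell cannot be told apart. A list of 10 proliferation genes, among them Mki67, Ccnb1 and Top2a, had group means in the same order as the SR sum. It summed to 1200 ± 194 TPM in Upf2 Trp53 Cre, 627 ± 317 TPM in Upf2 Cre and 1537 ± 529 TPM in Upf2 mock libraries. In Upf2 Cre against Upf2 mock 9 of its 10 genes fell and 0 rose, and 6 of 10 rose in Upf2 Trp53 Cre against Upf2 Cre, in both cases also under median-ratio scaling (10 of 10 each without the libraries numbered 3). Upf2 Cre replicate 3 had the highest sums of its group for both lists, 1419 TPM for SR genes and 1184 TPM for proliferation genes. Upf2 Cre replicate 8 had the lowest, 695 and 347 TPM. In Upf2 mock the lowest SR sum was in replicate 8 (935 TPM) and the lowest proliferation sum in replicate 3 (789 TPM). In Upf2 Trp53 Cre the highest were in replicate 6 (1656 TPM, SR) and replicate 5 (1424 TPM, proliferation). The part of proliferation in the SR levels was not tested. Of the 8 radial glia and progenitor markers 5 were lower in Upf2 Cre against Upf2 mock (3 under median-ratio scaling). Among them were Slc1a3 (-1.54, adjusted p = 0.00011) and Fabp7 (-1.46, adjusted p = 0.00539), while the highest difference of the list was 0.43. Without Upf2 Cre replicate 3, 6 were called lower and 1 higher. In Upf2 Trp53 Cre against Upf2 mock 1 was lower. Between the Cre groups 1 was higher (0 under median-ratio scaling, 4 without Upf2 Cre replicate 3). Of 5 astrocyte markers 3 were lower in Upf2 Cre against Upf2 mock, also under median-ratio scaling. Among them were Gja1 (-1.62, adjusted p = 0.000318) and S100b (-1.20, adjusted p = 0.00793). The list also went the other way, with a highest difference of 0.65 there and 0.94 in Upf2 Trp53 Cre against Upf2 mock. Its summed level averaged 571 ± 192 TPM in Upf2 Cre and 566 ± 223 TPM in Upf2 mock libraries. In Upf2 Trp53 Cre against Upf2 mock 1 of the 5 was lower, Gja1 (-1.28, adjusted p = 0.00279), and between the Cre groups 0 were called (1 higher without the libraries numbered 3). Of 4 tested neuronal markers 2 were higher in Upf2 Trp53 Cre against Upf2 mock, Nefm (1.57, adjusted p = 1.5e-05) and Tubb3 (1.23, adjusted p = 0.0327), where median-ratio scaling left 1 higher and 1 lower. In Upf2 Cre against Upf2 mock Nefm was higher (0.50, adjusted p = 0.046) and Map2 lower (-0.83, adjusted p = 0.00503), with 2 higher and 1 lower under median-ratio scaling. Between the Cre groups Nefm alone was called, higher (1.06, adjusted p = 0.00243). Of 5 tested oligodendrocyte lineage markers only Pdgfra was called, lower in Upf2 Cre against Upf2 mock (-1.32, adjusted p = 0.0134); without Upf2 Cre replicate 3, or without all libraries numbered 3, 1 was also lower between the Cre groups. Over all tested genes 24.2% were lower and 16.5% higher in Upf2 Cre against Upf2 mock. The shares were 1.09% and 10.4% in Upf2 Trp53 Cre against Upf2 mock, and 2.46% and 11.8% between the Cre groups. The part of these cell types in the SR levels was not tested.

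**Figure D5:**
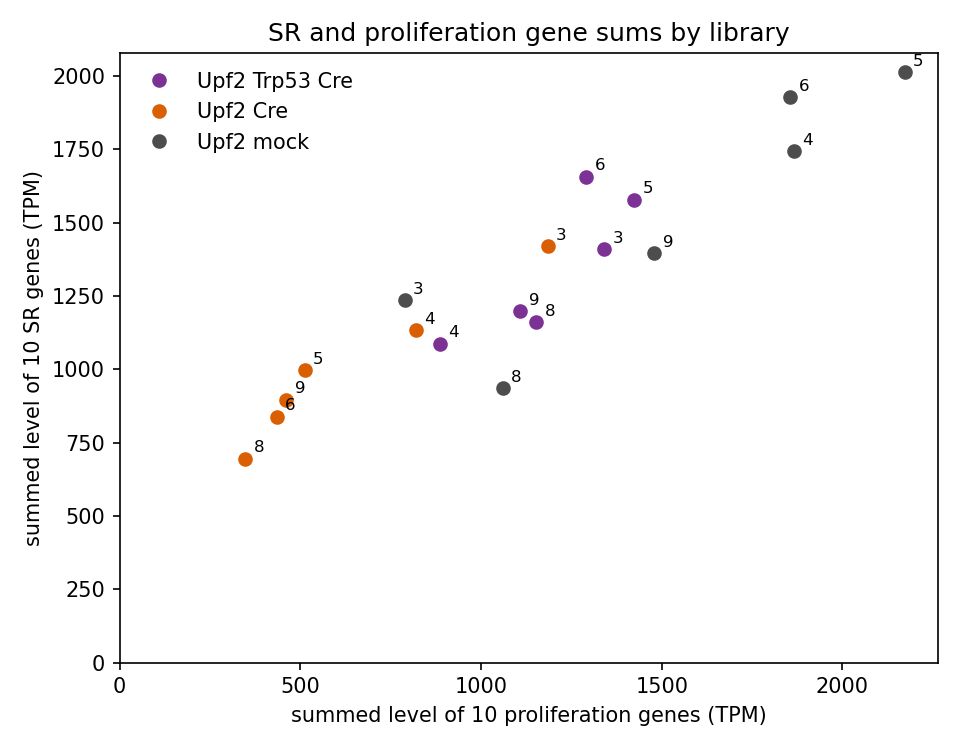
Summed level of the 10 SR genes (vertical, TPM) against the summed level of 10 proliferation genes (horizontal, TPM), with a point per library labelled by its replicate number. Of the Upf2 Cre libraries 4 lie at the lower left, replicate 4 beside Upf2 Trp53 Cre replicate 4, and replicate 3 among the other Upf2 Trp53 Cre libraries; the Upf2 mock libraries range from 935 TPM of SR genes in replicate 8 to 2012 TPM in replicate 5.

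Among proteins that act with the SR family, 32 genes of other SR and SR-related proteins were measured and tested. In Upf2 Cre against Upf2 mock 2 rose and 4 fell, with a median log2 difference of -0.16. Over all tested genes 16.5% rose and 24.2% fell there, with a median of -0.12. Sfswap, which encodes a regulator of alternative splicing, rose by 0.50 (adjusted p = 0.0174), and Scaf1 by 0.58 (adjusted p = 0.0386). Rsrc1, Scaf11, Bclaf1 and Son, which encode SR-related proteins, fell by 0.59, 0.55, 0.61 and 0.45 (adjusted p = 0.0167, 0.0259, 0.0348 and 0.0449). In Upf2 Trp53 Cre against Upf2 mock 2 rose and 0 fell, with a median of 0.14. Over all tested genes 10.4% rose and 1.09% fell there, with a median of 0.08. Luc7l, which encodes a partner of the U1 particle at the 5′ splice site, averaged 139 ± 20.2 TPM in Upf2 Trp53 Cre and 52.4 ± 6.14 TPM in Upf2 mock libraries. Its log2 difference of 1.38 (adjusted p = 2.03e-04) was larger than that of any of the 10 SR genes, and its groups did not overlap. Sfswap rose there by 0.72 (adjusted p = 0.00364). Between the Cre groups 4 rose and 0 fell: U2af1 (0.91, adjusted p = 0.0225), which encodes the 3′ splice site reader, Luc7l (0.87, adjusted p = 0.0174), Prpf38b (0.55, adjusted p = 0.0436) and Ppig (0.62, adjusted p = 0.044). Over all tested genes 11.8% rose and 2.46% fell between the Cre groups, so the 4 of 32 are near the background. Srsf12, Tra2a and Tra2b did not pass in any comparison. Under median-ratio scaling 5 rose and 3 fell in Upf2 Cre against Upf2 mock, and 0 were called between the Cre groups; without Upf2 Cre replicate 3 the counts were 5 and 8, and 9 and 1. Without all libraries numbered 3, 7 rose in each of the comparisons with Upf2 mock.

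Of 9 genes for SR protein kinases and nuclear import, 2 fell and 0 rose in Upf2 Cre against Upf2 mock. Over all tested genes 24.2% fell and 16.5% rose there. In Upf2 Trp53 Cre against Upf2 mock 0 of the 9 changed, where 11.5% of all tested genes were called. Between the Cre groups 1 rose, where 11.8% of all tested genes rose. The 2 of 9 and the 1 of 9 are thus near the background. Tnpo3, which encodes the importin that brings SR proteins into the nucleus, averaged 40.4 ± 7.62 TPM in Upf2 Trp53 Cre, 22.6 ± 8.85 TPM in Upf2 Cre and 37.4 ± 5.18 TPM in Upf2 mock libraries. It fell by 0.76 in Upf2 Cre against Upf2 mock (adjusted p = 0.00705) and rose by 0.86 in Upf2 Trp53 Cre against Upf2 Cre (adjusted p = 0.0137). Srpk2, which encodes an SR protein kinase, fell by 0.60 in Upf2 Cre (adjusted p = 0.0227). The genes Clk1 to Clk4, which encode nuclear kinases of SR proteins, did not pass in any comparison. Median-ratio scaling left 0 called between the Cre groups, and without Upf2 Cre replicate 3 the counts grew to 4 lower in Upf2 Cre against Upf2 mock and 3 higher between the Cre groups.

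The hnRNP genes encode RNA-binding proteins that often oppose SR proteins at splice sites. Of 24 such genes and related regulators 14 fell and 0 rose in Upf2 Cre against Upf2 mock, with a median of -0.66. Hnrnpc averaged 142 ± 124 TPM in Upf2 Cre and 386 ± 110 TPM in Upf2 mock libraries (-1.66, adjusted p = 0.0022), and Hnrnpa1 662 ± 348 TPM in Upf2 Cre and 1479 ± 404 TPM in Upf2 mock libraries (-1.24, adjusted p = 0.00259). In Upf2 Trp53 Cre against Upf2 mock 1 rose (Hnrnph3, 0.57) and 0 fell, and between the Cre groups 2 rose (Hnrnpc, 1.16, and Hnrnph3, 0.56) and 0 fell. Of 29 genes of the small nuclear ribonucleoproteins and the core spliceosome, 13 fell and 1 rose in Upf2 Cre against Upf2 mock (median -0.43). The fallen ones included Snrpd3 (-1.33), a ring protein of the spliceosomal particles, and Sf3b1 (-1.14), a branch site factor. In Upf2 Trp53 Cre against Upf2 mock 0 of the 29 changed, and between the Cre groups 8 rose and 0 fell, among them Prpf4 (0.96) and Snrnp200 (0.61). Between the Cre groups these counts rested on the scaling and on Upf2 Cre replicate 3: under median-ratio scaling 0 hnRNP and 1 core gene rose, and without that library 9 and 17 rose. Median-ratio scaling also left 0 hnRNP genes called in Upf2 Trp53 Cre against Upf2 mock. The falls in Upf2 Cre held at 12 hnRNP and 12 core genes under that scaling, and numbered 20 and 18 without the libraries numbered 3. Called lower in Upf2 Cre against Upf2 mock were 4 of 10 SR genes, 14 of 24 hnRNP genes and 13 of 29 core genes. Of all tested genes 24.2% were lower there, and whether these shares differ was not tested. The share of all tested genes called higher was 10.4% in Upf2 Trp53 Cre against Upf2 mock and 11.8% between the Cre groups.

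Of 9 NMD factor genes other than Upf2, 5 rose and 1 fell in Upf2 Cre against Upf2 mock. Over all tested genes 16.5% rose and 24.2% fell there. In Upf2 Trp53 Cre against Upf2 mock 6 rose and 0 fell, beside 10.4% and 1.09% of all tested genes. Between the Cre groups 2 rose (0 under median-ratio scaling), beside 11.8% of all tested genes. Smg5, which encodes an NMD factor that recruits decay enzymes, had log2 differences of 1.37 in Upf2 Trp53 Cre and 1.25 in Upf2 Cre against the same mock libraries. Of the 10 SR genes 0 rose in Upf2 Cre and 1, Srsf4, rose in Upf2 Trp53 Cre, near the share of all tested genes. Whether the NMD factor and SR genes differ was not tested.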

How the data were processed

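Per the labels, the RNA had an integrity number of at least 9.0 and was prepared with a TruSeq Stranded Total RNA kit. Per the submitters' processing notes, reads were aligned with STAR to mm10; the quantification tool, the gene annotation and the use of strand are not given in the sources used here. The authors deposited gene-level TPM, which have the same sum in each library and keep no depth; counting intervals cannot be formed, and an increase of some genes lowers the rest.

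Values were transformed to log2(TPM + 1), so a fold change of a low gene is understated. Genes were tested where 6 or more of the 18 libraries reached 1 TPM. A model with 3 group means was fitted over all libraries with limma 3.58.1 in R 4.3.3 with a mean-variance trend, and p-values were adjusted by Benjamini and Hochberg over all 15216 tested genes, with a threshold of 0.05. The method was tested on simulated data. The SR genes and the lists were chosen with earlier results of these data known. The labels call the replicates biological but do not say that they are separate animals, so the p-values cover the spread between these cultures.

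Named genes are the 10 SR genes, Upf2, Trp53 and, of each list, up to 5 tested members with the smallest adjusted p in each comparison; genes outside that rule (Son, Srsf12, Tra2a, Tra2b, Mki67 and the Clk genes among them) were chosen after their values were seen. Stop exons were read from GENCODE M21 with the GRCm38 (mm10) genome, and near-identical copies were found with BLAST 2.17.0 at 90% identity over at least 300 nt. Figures were drawn with Matplotlib 3.10.9. Alternatives were median-ratio scaling or quantile normalization, another pseudocount (0.1), no filter, a minimum mean of 5 TPM, no trend, robust moderation, only the compared groups, a replicate block, each library left out, and the libraries numbered 3 left out; for the lists, scalings and libraries to leave out were chosen after seeing the data. Protein sequences were not used here.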

Additional observations from a re-analysis of the deposited data

Results flagged for a closer look

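Of 30 sets of 6 libraries (10 SR genes in 3 groups), 4 held a library far from the other 5, with a gap to its nearest neighbour that passed Dixon's 95% critical share of the range; chance flags about 1 set in 20. In Upf2 Cre replicate 3, Srsf1 was at 153.5 TPM, with the next library at 86.4 TPM. In the same library Srsf3 was at 215.2 TPM, with the next at 69.64 TPM, and Srsf7 at 155.5 TPM, with the next at 56.28 TPM. That library also had the highest proliferation sum of its group, 1184 TPM. In Upf2 mock replicate 3, Srsf9 was at 97.48 TPM, below the next library at 177.2 TPM, and that library had the lowest proliferation sum of the mock group, 789 TPM. What sets these libraries apart was not tested.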

How the results depend on the processing

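Of 840 values (30 differences of SR genes under 28 alternatives) 802 stayed on their side of the threshold, 12 lost a call and 26 gained one. Srsf1, Srsf3 and Srsf7 were called lower in Upf2 Cre against Upf2 mock under all 28, with largest adjusted p of 0.0103, 0.0292 and 0.00957; Srsf2 was called in 20 and Srsf4, in Upf2 Trp53 Cre against Upf2 mock, in 24. The count of SR genes called lower in Upf2 Cre against Upf2 mock ran from 3 to 7 with a library left out. SR genes called higher in Upf2 Trp53 Cre against Upf2 mock numbered 0 under median-ratio scaling and 0 to 1 with a library left out. Between the Cre groups they numbered 4 with the replicate block (Srsf1, Srsf3, Srsf4 and Srsf6), 5 without the libraries numbered 3 and 0 to 5 with a library left out.

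Over all tested genes, leaving out a library gave 1896 to 3506 higher and 2554 to 4763 lower for Upf2 Cre against Upf2 mock, 1177 to 1979 and 111 to 375 for Upf2 Trp53 Cre against Upf2 mock, and 427 to 4128 and 167 to 1372 between the Cre groups. Without the libraries numbered 3, 3854 were higher for Upf2 Cre against Upf2 mock, 2820 higher and 670 lower for Upf2 Trp53 Cre against Upf2 mock, and 4200 and 1312 between the Cre groups. Median-ratio scaling gave 419 lower for Upf2 Trp53 Cre against Upf2 mock, and 334 higher and 680 lower between the Cre groups; quantile normalization gave 478, and 539 and 592. The causes were not tested.

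After group means were removed, same-numbered libraries correlated at -0.17 to 0.74, with medians of 0.21, 0.47 and 0.34 for Upf2 Cre against Upf2 mock, Upf2 Trp53 Cre against Upf2 mock and between the Cre groups, against -0.10, -0.12 and -0.10 for other numbers. Over 0.1 were 4, 5 and 5 of 6 pairs; not every pair passed, so the numbers were not taken as pairs. With the replicate block, 2532 genes were higher and 438 lower for Upf2 Trp53 Cre against Upf2 mock, and 3586 and 859 between the Cre groups; Srsf6 and Srsf11 joined the genes called lower in Upf2 Cre against Upf2 mock (adjusted p = 0.0118 and 0.0179). Of the libraries 3 of 12, 6 of 12 and 7 of 12 correlated best with their own number in the 3 comparisons. The unknown depth, and reads shared with copies or overlapping genes, limit what the levels show.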

Other observations

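Protein-coding genes with an annotated NMD transcript, the class to which 9 of the 10 SR genes belong, were counted beside all other protein-coding genes. In Upf2 Trp53 Cre against Upf2 mock, 13.3% of 3449 such genes were called higher and 0.725% lower, against 10.8% and 1.13% of 8610 other genes. In Upf2 Cre against Upf2 mock, 20.5% were higher and 23.4% lower, against 18.2% and 25.4% of the others. Between the Cre groups the shares were 14.0% higher and 1.94% lower, against 11.8% and 2.90%. These shares are a description, and their differences were not tested.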
